A study of Arabidopsis thaliana with 8 samples.

Results

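The phytochrome-interacting factor (PIF) family of Arabidopsis thaliana was followed through 4 genotypes of dark-grown seedlings. It comprised 8 of the 33518 genes counted, taken by gene code: PIF1 (also PIL5, AT2G20180), PIF3 (AT1G09530), PIF4 (AT2G43010), PIF5 (also PIL6, AT3G59060), PIF6 (also PIL2, AT3G62090), PIF7 (AT5G61270), PIF8 (also UNE10, AT4G00050) and PIL1 (AT2G46970). PIFs are basic helix-loop-helix (bHLH) transcription factors that bind G-box and related DNA elements. PIF1, PIF3, PIF4 and PIF5 accumulate in darkness, promote hypocotyl elongation and hold back greening. Light-activated phytochromes bind these 4 and trigger their removal. PIF4 and BZR1, the transcription factor at the end of the brassinosteroid signalling chain, bind each other and share many target genes, which is the subject named in the title of the series.

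The pifq;bzr1-1D genotype joins the quadruple mutant with the bzr1-1D allele. The bzr1-1D genotype carries a dominant allele that keeps BZR1 active when little brassinosteroid is made. The pifq genotype lacks PIF1, PIF3, PIF4 and PIF5, and Col-0 is the wild type, whose ecotype is given for all 4 genotypes. Each genotype had 2 RNA-seq libraries from whole etiolated seedlings harvested after 5 days in darkness on MS medium with BRZ, an inhibitor of brassinosteroid synthesis, so the wild-type libraries are of inhibitor-treated seedlings too. The alleles combined in pifq are not named in the labels. Nor is it stated that both libraries of a genotype were grown separately, and all p-values below therefore reflect library-to-library spread that may be technical.

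Each library held between 16.1 M and 34.4 M gene counts, and a count of 0 allows up to 3 counts, or 0.0872 to 0.186 CPM (counts scaled to the library total), counting error only. CPM below are scaled by TMM factors. The etiolated-seedling markers PORA and HLS1 were detected in all 8 libraries, and their summed level was 1053 to 1078 CPM in pifq;bzr1-1D, 2912 to 2952 in bzr1-1D, 1748 to 1778 in pifq and 3210 to 3219 in Col-0. This sum is almost all PORA. HLS1 had means of 8.33, 24.0, 7.03 and 20.5 CPM in that order. It was thus higher in pifq;bzr1-1D than in pifq and in bzr1-1D than in Col-0, where PORA was lower. Of the flower markers, AP1 had 0 counts in 5 libraries and AG in 2. The 3 root markers summed to 0 to 0.261 CPM in pifq;bzr1-1D, 0.267 to 0.323 in bzr1-1D, 3.502 to 3.89 in pifq and 6.52 to 7.75 in Col-0, and the 3 seed markers to 58.2 to 61.9, 1.34 to 1.45, 39.4 to 40.7 and 164 to 167 CPM in the same order. The seed markers did not all shift together. Means in pifq;bzr1-1D and pifq were 16.3 and 23.8 CPM for CRA1, 42.3 and 15.7 for CRU3, and 1.52 and 0.539 for OLEO1. In whole seedlings, fewer cells of a type and less RNA per cell cannot be told apart, and the part of these shifts in the PIF values was not tested.

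All 8 family genes differed between pifq and Col-0, 3 higher and 5 lower, by the edgeR quasi-likelihood test at an adjusted p under 0.05 over all 21221 genes tested. This call was common in the comparison, being made for 62.5% of all genes, 32% higher and 30.5% lower, so the sizes below say more than the calls. Family folds ran from a 29.5-fold fall (PIL1) to rises of 6.13-fold (PIF8) and 6.78-fold (PIF7). The PIF7 fold rests on 5 and 6 counts in Col-0 and on a filter passed only where the gene is higher, and its log2 value was 2.22 to 3.22 leaving out 1 library, against 2.48 to 2.73 for PIF8. The family's median log2 fold change was −0.96, against 0.01 over all genes. That median includes the 4 genes mutated in pifq and lies between 2 of them, PIF1 (−1.06) and PIF3 (−0.85). It does not describe a fall shared by the family, since the other members split. PIL1 (−4.88) and PIF6 (−3.26) fell, and PIF8 (2.61) and PIF7 (2.76) rose. Log2 fold changes are given with their standard errors (SE), with 2 libraries per genotype.

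**Figure D1:**
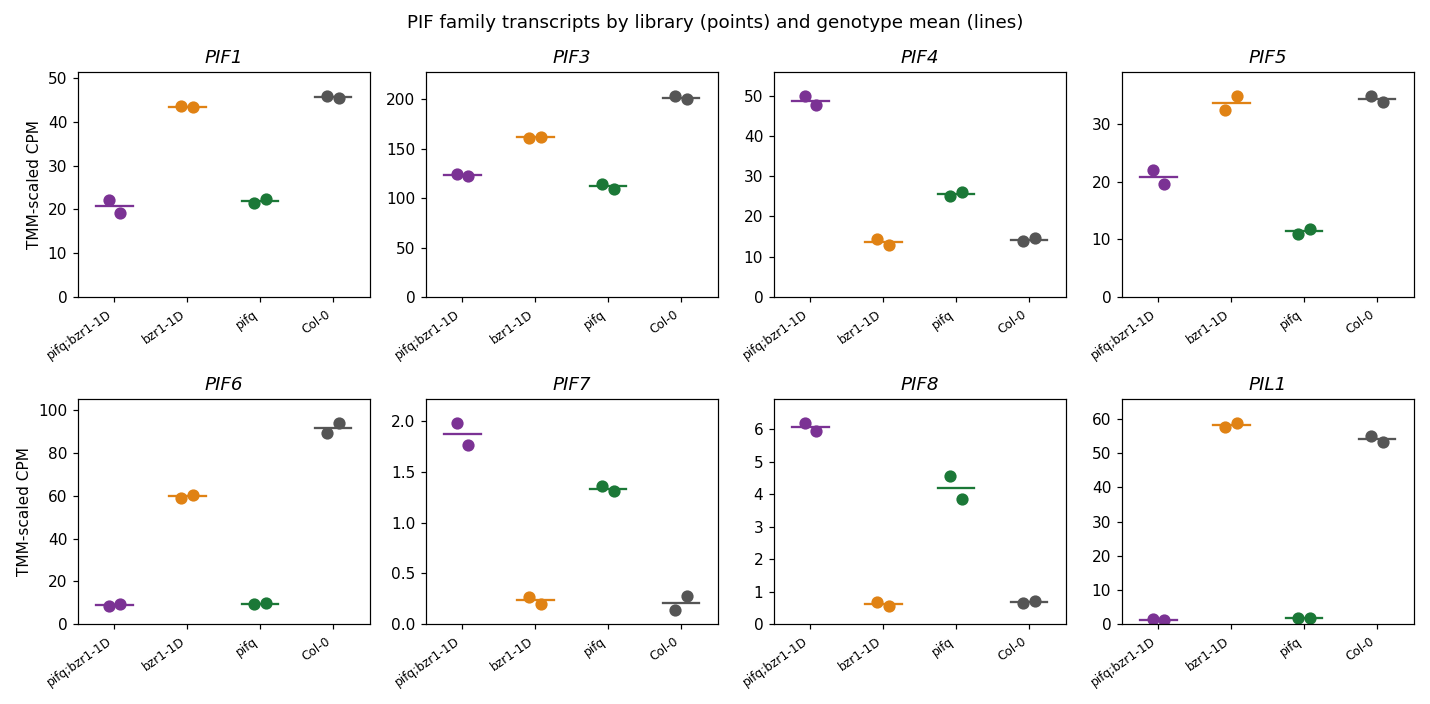
TMM-scaled CPM (vertical axes, each from 0 and with its own range) of the 8 PIF family genes in the 4 genotypes. Points are single libraries and lines are means of 2 libraries. PIL1 and PIF6 were low, and PIF7 and PIF8 high, in both genotypes without the 4 PIFs.

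PIF1, PIF3 and PIF5, 3 of the 4 mutated genes, were still counted in pifq but at a lowered level. PIF1, which also represses seed germination in the dark, had 21.5 and 22.4 CPM in the pifq libraries, against 45.9 and 45.6 CPM in Col-0. Its log2 fold change was −1.06 ± 0.06 (edgeR adjusted p = 2.87e-17). The libraries of the 2 genotypes did not overlap, and every pifq value was below every Col-0 value. AT2G20170, whose annotated span overlaps that of PIF1, had 0 counts in all 8 libraries. PIF3, the first member described as a phytochrome partner, had 114 and 109 CPM in pifq and 203 and 200 CPM in Col-0 (−0.85 ± 0.04, edgeR adjusted p = 5.59e-20). PIF5, which acts with PIF4 in shade and daily growth rhythms, had 10.97 and 11.8 CPM in pifq and 34.95 and 33.9 CPM in Col-0 (−1.60 ± 0.07, edgeR adjusted p = 1.49e-19). PIF5 was thus the most lowered of the 4 mutated genes in pifq, at 3.03-fold.

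PIF4, the member best known for growth in warmth and shade, moved the other way. It had 25.02 and 26.1 CPM in pifq, above the 13.9 and 14.6 CPM of Col-0 (0.85 ± 0.07, edgeR adjusted p = 1.53e-12). Each count covers the gene as a whole, so it cannot tell intact from truncated PIF message, and these values do not check the genotype.

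The same 4 genes were compared where BZR1 was kept active. PIF1 had 22.1 and 19.3 CPM in pifq;bzr1-1D, against 43.6 and 43.4 CPM in bzr1-1D (−1.05 ± 0.06, edgeR adjusted p = 2.10e-16), a difference close in size to that between pifq and Col-0. PIF3 had 124 and 123 CPM in pifq;bzr1-1D and 161 and 162 CPM in bzr1-1D (−0.38 ± 0.04, edgeR adjusted p = 1.04e-10). PIF5 had 22.2 and 19.6 CPM in pifq;bzr1-1D and 32.5 and 34.9 CPM in bzr1-1D (−0.67 ± 0.07, edgeR adjusted p = 1.26e-10). For PIF3 and PIF5 the libraries did not overlap, and both differences were smaller than those of pifq from Col-0 by the interaction test given below. PIF4 had 49.9 and 47.5 CPM in pifq;bzr1-1D and 14.5 and 12.8 CPM in bzr1-1D (1.84 ± 0.07, edgeR adjusted p = 2.67e-22), a 3.58-fold rise. All 8 family genes were called here as well, 3 higher and 5 lower, in a comparison where 65.4% of all genes were called, 33.8% higher and 31.6% lower.

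Of the 4 members that pifq does not mutate, PIL1 and PIF6 were far lower without the other PIFs. PIL1 encodes a bHLH protein whose gene is a classic rapid shade-response gene and a direct target of PIF proteins. It had 1.91 and 1.76 CPM in pifq, or 49 and 43 counts, against 55.0 and 53.2 CPM in Col-0, or 1972 and 1132 counts (−4.88 ± 0.09, edgeR adjusted p = 3.43e-30). With active BZR1 the picture was the same, with 1.55 and 1.18 CPM in pifq;bzr1-1D and 57.6 and 58.7 CPM in bzr1-1D (−5.36 ± 0.10, edgeR adjusted p = 2.52e-30). PIL1 showed the largest fold of the family in each of these comparisons, 29.5-fold and 41.0-fold.

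PIF6 is known chiefly for its part in seed dormancy. It had 9.38 and 9.73 CPM in pifq, against 89.4 and 93.9 CPM in Col-0 (−3.26 ± 0.06, edgeR adjusted p = 2.56e-30). In the genotypes with active BZR1 it had 8.49 and 9.48 CPM in pifq;bzr1-1D and 59.1 and 60.2 CPM in bzr1-1D (−2.75 ± 0.07, edgeR adjusted p = 6.95e-27). No library without the 4 PIFs came near one with them. A neighbouring gene whose annotated span overlaps that of PIF6, AT3G62080, had 22.3, 22.4, 20.9 and 20.4 CPM in pifq;bzr1-1D, bzr1-1D, pifq and Col-0. Its log2 fold change in pifq against Col-0 was 0.00 ± 0.08 (edgeR adjusted p = 0.979).

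PIF7 and PIF8 were scarce in the genotypes with all PIFs and higher in those without. PIF7, which promotes elongation in shade, had 35 and 32 counts in pifq (1.36 and 1.31 CPM), against 5 and 6 counts in Col-0 (0.139 and 0.282 CPM). Its log2 fold change was 2.76 ± 0.38 (edgeR adjusted p = 1.37e-07). It had 55 and 27 counts in pifq;bzr1-1D (1.98 and 1.76 CPM) and 7 and 5 counts in bzr1-1D (0.267 and 0.202 CPM), a log2 fold change of 2.99 ± 0.36 (edgeR adjusted p = 7.21e-09). The genotypes did not overlap, but PIF7 passed the filter on low counts, at about 0.398 CPM in 2 libraries, only through the genotypes where it was higher. The levels with the PIFs present lie close to what a count of 0 allows. AT5G61260, whose annotated span overlaps that of PIF7, went the other way in pifq against Col-0 (−0.50 ± 0.13, edgeR adjusted p = 0.00154).

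PIF8, a member whose product also acts in far-red light, had 117 and 94 counts in pifq (4.55 and 3.84 CPM) and 24 and 15 counts in Col-0 (0.669 and 0.705 CPM). This was a 6.13-fold rise (log2 fold change 2.61 ± 0.21, edgeR adjusted p = 1.05e-12). With active BZR1 it had 172 and 91 counts in pifq;bzr1-1D (6.19 and 5.95 CPM) and 18 and 14 counts in bzr1-1D (0.687 and 0.564 CPM), a 9.64-fold rise (3.27 ± 0.21, edgeR adjusted p = 2.95e-15). Every library without the 4 PIFs was above every library with them. Of the members not mutated in pifq, PIL1 and PIF6 thus fell and PIF7 and PIF8 rose, with and without active BZR1.

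The bzr1-1D allele left most of the family near its Col-0 level where the PIFs were present. Only PIF3 and PIF6 of the 8 members were called in bzr1-1D against Col-0, both lower, while 56.8% of all genes were called and 26.1% were called lower. PIF6 was 1.53-fold lower, at 59.1 and 60.2 CPM in bzr1-1D and 89.4 and 93.9 CPM in Col-0 (−0.62 ± 0.04, edgeR adjusted p = 5.01e-14). PIF3 was 1.25-fold lower, at 161 and 162 CPM in bzr1-1D and 203 and 200 CPM in Col-0 (−0.32 ± 0.04, edgeR adjusted p = 1.79e-09). PIF4 had 14.5 and 12.8 CPM in bzr1-1D and 13.9 and 14.6 CPM in Col-0, which overlap (−0.05 ± 0.08, edgeR adjusted p = 0.610). The log2 fold changes of the others not called were −0.07 ± 0.05 for PIF1, −0.03 ± 0.06 for PIF5, 0.10 ± 0.05 for PIL1 (edgeR adjusted p = 0.0613), −0.12 ± 0.33 for PIF8 and 0.28 ± 0.58 for PIF7. PIF7 and PIF8 had at most 24 counts in any library of these 2 genotypes, and their SE were the widest of the family. The libraries of 4 members did not overlap in this comparison, PIF1 and PIL1 among them although not called. With 2 libraries per genotype, a lack of overlap thus adds little to a call. Its share over all genes was not computed.

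Where the 4 PIFs were missing, the allele went with higher PIF4 and PIF5. Between pifq;bzr1-1D and pifq, 4 of 8 members were called, all higher, against 55.9% of all genes called, 28.1% higher and 27.8% lower. A 2-fold difference or more was called for 7.62% of all genes and for none of the 8. PIF4 had 49.9 and 47.5 CPM in pifq;bzr1-1D and 25.02 and 26.1 CPM in pifq (0.94 ± 0.06, edgeR adjusted p = 3.48e-15). PIF5 had 22.2 and 19.6 CPM in pifq;bzr1-1D and 10.97 and 11.8 CPM in pifq (0.89 ± 0.08, edgeR adjusted p = 3.08e-11). Both genes lay 1.86-fold to 1.92-fold higher, with no overlap between libraries, although both are mutated in these genotypes.

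The other 2 calls of that comparison were smaller and less stable. PIF8 had a log2 fold change of 0.53 ± 0.14 (edgeR adjusted p = 0.00179), and PIF3 one of 0.14 ± 0.04 (edgeR adjusted p = 0.00199). Without pifq replicate 2 neither was called, so the count fell to 2 members (edgeR adjusted p = 0.06 for PIF8 and 0.150 for PIF3). PIF8 also missed the threshold in DESeq2 (adjusted p = 0.0834), and PIF3 did so without pifq;bzr1-1D replicate 1 (edgeR adjusted p = 0.0699) and with library totals in place of TMM factors (edgeR adjusted p = 0.130). PIF7 (0.51 ± 0.24, edgeR adjusted p = 0.0788), PIL1 (−0.37 ± 0.22), PIF6 (−0.11 ± 0.10) and PIF1 (−0.06 ± 0.07) were not called. The libraries of PIF7 and PIL1 did not overlap here either.

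**Figure D2:**
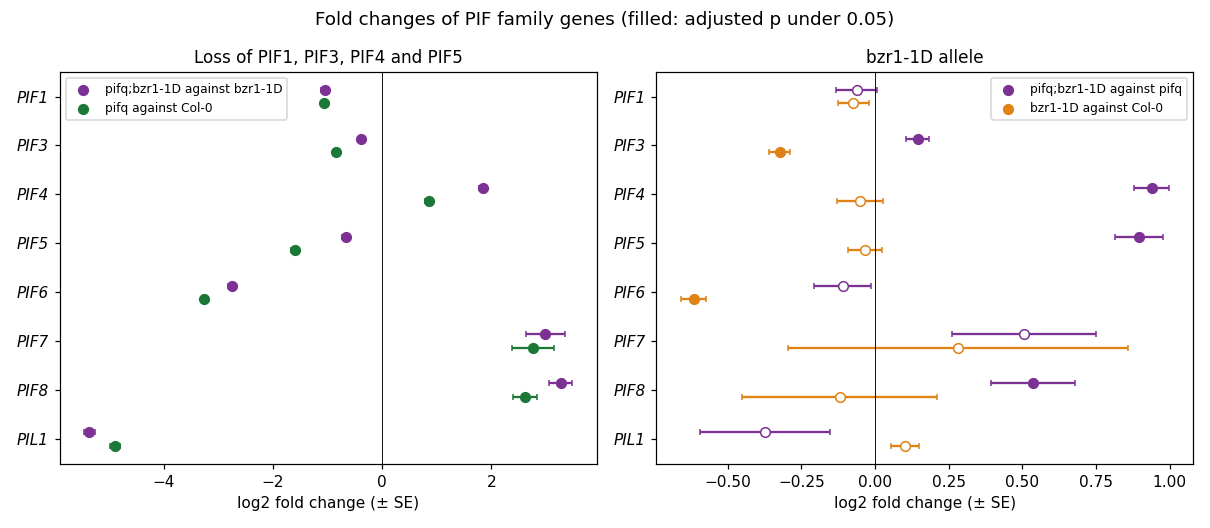
Log2 fold changes (horizontal axes) with their SE as bars for the 8 genes. The left panel sets genotypes without the 4 PIFs against those with them, and the right panel sets genotypes with the bzr1-1D allele against those without it; filled points had an edgeR adjusted p under 0.05. PIF4 and PIF5 stood at 0.94 and 0.89 in pifq;bzr1-1D against pifq, and at −0.05 and −0.03 in bzr1-1D against Col-0.

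Whether the bzr1-1D effect depended on the PIF background was tested directly, as the log2 effect in the background lacking them less the log2 effect in the other (an interaction). It was called for PIF4, PIF5, PIF3 and PIF6, all positive, where 48.8% of all genes were called, 21.9% positive and 26.9% negative. The log2 difference was 0.99 ± 0.10 for PIF4 (edgeR adjusted p = 4.20e-10) and 0.93 ± 0.10 for PIF5 (edgeR adjusted p = 2.24e-09). It was 0.47 ± 0.05 for PIF3 (edgeR adjusted p = 5.29e-09) and 0.51 ± 0.11 for PIF6 (edgeR adjusted p = 0.000191). In PIF3 the direction differed, with a call for lower in bzr1-1D against Col-0 and one for higher in pifq;bzr1-1D against pifq, the second being the unstable one named above. In PIF6 the allele's effect was called where the PIFs were present and not where they were missing. PIF1, PIF7, PIF8 and PIL1 had no call (0.01 ± 0.09, 0.22 ± 0.65, 0.65 ± 0.36 and −0.48 ± 0.22).

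Across all 4 genotypes the levels fell into distinct orders. For PIF4 the order was pifq;bzr1-1D, then pifq, then Col-0 and bzr1-1D, with no call between the last 2. PIF5 ran from Col-0 and bzr1-1D, with no call between them, through pifq;bzr1-1D to pifq. PIF3 ran from Col-0 through bzr1-1D and pifq;bzr1-1D to pifq, each step being called, the last of them with the limits given above for PIF3. PIF1 and PIL1 formed 2 levels, high in Col-0 and bzr1-1D and low in pifq and pifq;bzr1-1D, with no call within either level. PIF6 had 3, Col-0 above bzr1-1D and that above the pair without PIFs. PIF7 was high in pifq;bzr1-1D and pifq and low in bzr1-1D and Col-0, with no call within either pair. PIF8 was likewise, except that pifq;bzr1-1D was called above pifq, a step with the limits given above for PIF8.

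Against Col-0, the combined line pifq;bzr1-1D differed in all 8 members, 3 higher and 5 lower, with 54.3% of all genes called, 29.3% higher and 25% lower. PIF4 reached 48.7 ± 1.67 CPM in pifq;bzr1-1D and 14.2 ± 0.534 CPM in Col-0 (SD, n = 2 each), a 3.46-fold rise (log2 fold change 1.79 ± 0.06, edgeR adjusted p = 4.72e-22). PIF5 stayed lower (−0.70 ± 0.07), beside −1.60 ± 0.07 for pifq against Col-0, and the 2 comparisons share the Col-0 libraries. The other values were −1.12 ± 0.06 for PIF1, −0.71 ± 0.04 for PIF3, −3.37 ± 0.06 for PIF6, −5.26 ± 0.10 for PIL1, 3.15 ± 0.20 for PIF8 and 3.27 ± 0.36 for PIF7. Set directly against pifq, bzr1-1D also differed in all 8, 5 higher and 3 lower (74.1% of all genes called, 36.9% higher and 37.3% lower), with PIL1 at 4.98 ± 0.09, PIF6 at 2.64 ± 0.06 and PIF8 at −2.74 ± 0.22.

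Within the family the most alike pair of profiles was PIF7 and PIF8, by a small margin. Likeness was taken as the root mean square difference of log2 CPM over the 8 libraries, each gene centred on its own mean, and is a description over libraries that fall into 4 genotypes. It was 0.255 for PIF7 and PIF8 and 0.26 for PIF1 and PIF3, whereas PIF8 and PIL1 were 3.96 apart. PIF7 had only 5 to 7 counts in each Col-0 and bzr1-1D library. Its log2 CPM there thus depend on the prior count of 2 that is added before taking logs. PIF8 was also the closest to PIF7 of the 18775 genes compared, those with a mean of 1 CPM or more. PIF7 itself had a mean below 1 CPM and was not among those genes. Of them, the closest to PIF8 were DTX1 (0.266) and STH (0.278), a B-box gene. DTX1, a multidrug transporter gene, had 21.3, 3.77, 18.3 and 3.29 CPM in pifq;bzr1-1D, bzr1-1D, pifq and Col-0.

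For PIL1 the closest gene was AT2G42760 (0.222), with 1, 178, 1 and 163 counts over the libraries of pifq;bzr1-1D, bzr1-1D, pifq and Col-0, followed by CER1 (0.344), a wax alkane synthesis gene. With 1 count in pifq;bzr1-1D and 1 in pifq, the log2 CPM of AT2G42760 there depend on the prior count of 2. So does its likeness to PIL1. AT2G42760 lies 23 tested genes before PIF4, in a stretch described below. PIF6 was closest to AT5G02540 (0.146) and FAR1 (0.185), a fatty acyl-CoA reductase gene with 99.2, 726, 147 and 1061 CPM in the same genotype order. PIF5 was closest to AT4G16670 (0.0551) and IVD (0.0944), an isovaleryl-CoA dehydrogenase gene of leucine breakdown. PIF1 was closest to AAE16 (0.0671) and BRG3 (0.0948), and PIF4 to AT1G03580 (0.143) and AT3G59080 (0.163). AT3G59080 lies 2 tested genes after PIF5 in the gene order of the annotation.

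The genes around the 8 members were examined as well. Among the 5 tested genes on each side of the 8 members (79 in all, since PIF8 lies near a chromosome end), 7 were called with a 2-fold difference or more in pifq against Col-0, against 12.7% of all genes. There were 17 of 79 in pifq;bzr1-1D against bzr1-1D, against 16.8% of all genes. PIF4 had 3 of its 10 neighbours among the 7, and 6 of 10 in pifq;bzr1-1D against bzr1-1D. The 3 were ATPMEPCRD, a pectin methylesterase gene 3 genes after PIF4 with 22.6, 541, 28.8 and 150 CPM in pifq;bzr1-1D, bzr1-1D, pifq and Col-0; IBH1, a growth-restraining helix-loop-helix gene next to it with 2.94, 36.1, 3.91 and 34.7 CPM; and AT2G42990, 2 genes before PIF4, with 0.271, 1.76, 0.237 and 1.94 CPM.

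The remaining 4 were AT2G20250, 5 genes after PIF1 (log2 fold change 1.86 ± 0.22), AT3G59070, next to PIF5 (1.22 ± 0.46, edgeR adjusted p = 0.0215), CYP709B2, next to PIL1 (1.19 ± 0.07), and ABCB4, 3 genes after PIL1 (−1.14 ± 0.05). PIF3, PIF6, PIF7 and PIF8 had 0 such neighbours of 10, 10, 10 and 9. Directly beside PIF4, and named after its values were seen, the NAC transcription factor gene NAC042 had 2.81, 0.469, 0.239 and 0.0792 CPM in pifq;bzr1-1D, bzr1-1D, pifq and Col-0. Its difference between pifq;bzr1-1D and bzr1-1D was 2.58 ± 0.28 (edgeR adjusted p = 7.28e-10), and that between pifq and Col-0 was not called (1.40, edgeR adjusted p = 0.0742).

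Farther from PIF4, 5 successive tested genes, 20 to 24 places before it, were almost without reads in both genotypes that lack the PIFs. They were singled out after their values had been seen. CSY3, a citrate synthase gene at the near edge of this stretch, had 17 counts in pifq;bzr1-1D, 5017 in bzr1-1D, 24 in pifq and 5398 in Col-0. AT2G42780 had 0, 1150, 6 and 1297 counts in that order. RLP29, the next tested gene towards PIF4, had a log2 fold change of 0.02 in pifq against Col-0 and −1.06 in pifq;bzr1-1D against bzr1-1D. No run of adjoining genes with such falls appeared within 25 tested genes of PIF1, PIF3 or PIF5. Whether this stretch has a part in the PIF4 values was not tested. The gene order is that of TAIR10.1, another build than the TAIR9 named for the counts, so no coordinates or promoter sequences are given.

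**Figure D3:**
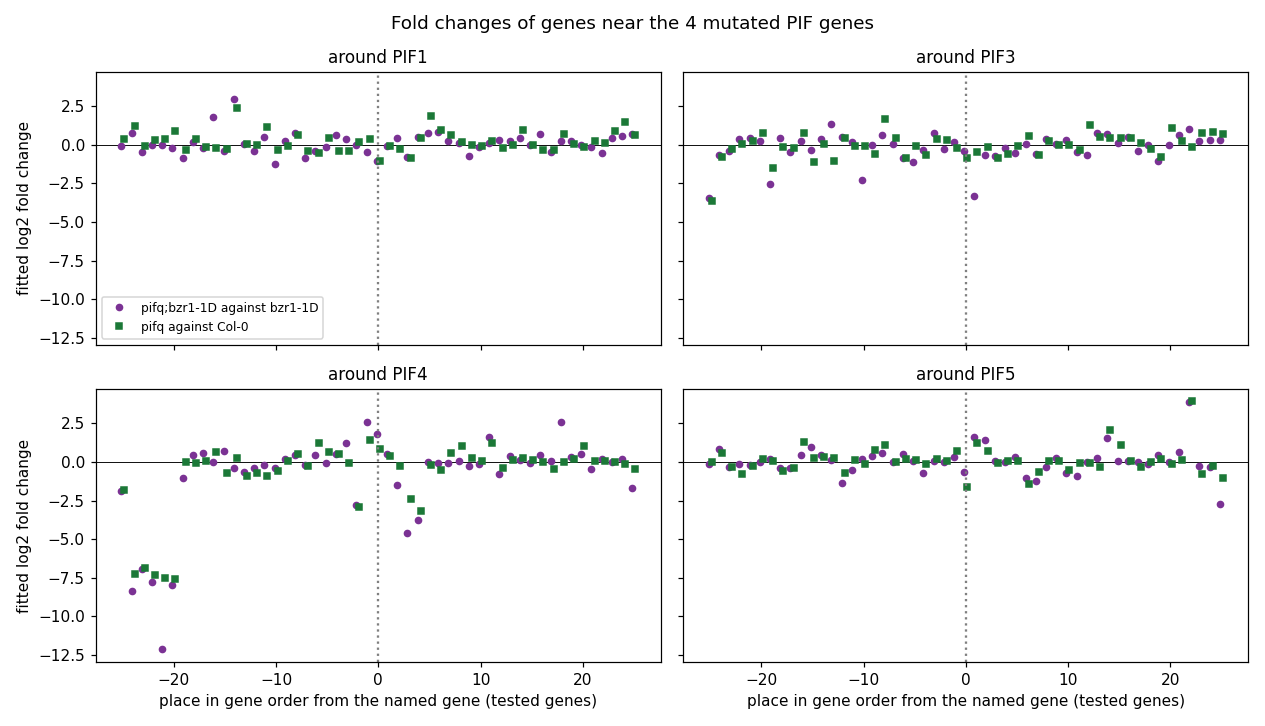
Fitted log2 fold change (vertical axes) of the tested genes up to 25 places (horizontal axes, gene order) on either side of PIF1, PIF3, PIF4 and PIF5, which lie at the dotted line. Circles are pifq;bzr1-1D against bzr1-1D and squares pifq against Col-0; the run at 20 to 24 places before PIF4 includes genes with 0 or few counts in the genotypes without PIFs, whose fitted values depend on the prior count.

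The wider PIF pathway was described through 5 lists with 48 genes, 46 of them tested. In pifq against Col-0, 9 rose and 31 fell, where 32% of all genes were called higher and 30.5% lower. The median log2 fold change was −0.41, against 0.01 over all genes. The 31 include 10 of the list of PIF-induced genes, for which a fall is built into the choice of the list. In pifq;bzr1-1D against pifq, 19 rose and 11 fell, with a median of 0.12, where 28.1% of all genes were higher and 27.8% lower. In bzr1-1D against Col-0, 11 rose and 15 fell, counts near the 30.8% of all genes called higher and the 26.1% called lower. In the comparison of pifq;bzr1-1D with bzr1-1D, 12 rose and 23 fell, where 33.8% of all genes were higher and 31.6% lower. With 5 to 14 genes tested per list, the counts below are descriptions beside these shares, and no list was tested against the other genes.

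Of the phytochromes, the photoreceptors that bind PIFs, PHYA and PHYB fell in pifq against Col-0 and the other 3 rose (all genes, 30.5% lower and 32% higher). PHYA, the receptor of etiolated tissue, had a mean of 962 CPM in pifq and 1761 CPM in Col-0 (−0.87 ± 0.04), and PHYB, the main receptor of red light, 72.4 CPM in pifq and 118 CPM in Col-0 (−0.71 ± 0.04). PHYD was the third by p (0.31 ± 0.08, edgeR adjusted p = 0.00188). PHYA and PHYB fell and PHYC, PHYD and PHYE rose in pifq;bzr1-1D against bzr1-1D too (all genes, 31.6% lower and 33.8% higher). In bzr1-1D against Col-0, 2 of 5 fell (PHYC, −0.33 ± 0.05, and PHYE, −0.27 ± 0.06) and none rose, where 56.8% of all genes were called, 26.1% lower and 30.8% higher. In pifq;bzr1-1D against pifq, 1 rose (PHYA, 0.14 ± 0.04, not called with library totals or without pifq replicate 1 or pifq;bzr1-1D replicate 2) and 2 fell (all genes, 28.1% higher and 27.8% lower).

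Genes for proteins that restrain PIFs were mostly lower without the 4 PIFs. Of 11, 8 fell in pifq against Col-0 and none rose, against 30.5% lower and 32% higher over all genes. HFR1, an HLH protein that forms inactive pairs with PIFs, had a mean of 2.01 CPM in pifq and 80.1 CPM in Col-0 (−5.31 ± 0.08), HEC2, a HECATE bHLH gene, 3.92 CPM in pifq and 33.1 CPM in Col-0 (−3.07 ± 0.09), and the DELLA gene GAI 25.8 CPM in pifq and 54.0 CPM in Col-0 (−1.06 ± 0.05). With active BZR1, pifq;bzr1-1D against bzr1-1D, 8 fell and 2 rose (all genes, 31.6% and 33.8%), with HFR1 at −4.23 ± 0.09 and RGA at −0.60 ± 0.04. In pifq;bzr1-1D against pifq, 7 rose and 1 fell (all genes, 28.1% and 27.8%), and the 3 with the smallest p were ELF3, a clock protein that sequesters PIF4 (0.30 ± 0.04), GAI (0.44 ± 0.06) and HEC1 (0.46 ± 0.07). In bzr1-1D against Col-0, 3 rose and 3 fell (all genes, 30.8% and 26.1%), with PAR2 at 1.33 ± 0.09 and HFR1 at −0.61 ± 0.05.

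Of the kinases and degradation factors of PIF proteins, 14 were tested. In pifq against Col-0, 3 rose and 9 fell (all genes, 32% and 30.5%), and those with the smallest p included HMR (1.05 ± 0.05), a plastid and nuclear protein needed for PIF turnover in light, and BIN2 (−0.51 ± 0.04), a brassinosteroid pathway kinase. Set against pifq, pifq;bzr1-1D had 8 higher and 1 lower (all genes, 28.1% and 27.8%). HMR had a mean of 65.8 CPM in pifq;bzr1-1D and 115 CPM in pifq (−0.81 ± 0.05), while LRB2 (0.57 ± 0.04) and LRB1 (0.54 ± 0.04), adaptors of ubiquitin ligases for PIF3, rose. In bzr1-1D against Col-0, 4 rose and 4 fell (all genes, 30.8% and 26.1%), with EBF1 at 0.43 ± 0.04, and in pifq;bzr1-1D against bzr1-1D 6 rose and 3 fell (all genes, 33.8% and 31.6%). COP1, the ubiquitin ligase that stabilises PIFs in the dark, named here for its role, was not called in any of these 4 comparisons, with log2 fold changes of −0.13 to 0.00.

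Of 6 group VII bHLH relatives, 5 were tested, and 2 rose and 2 fell in pifq against Col-0, where 62.5% of all genes were called, 32% higher and 30.5% lower. AT4G28800 fell (−1.33 ± 0.18), and ALC, a fruit opening gene, rose (0.38 ± 0.13), as did AT4G28790 (0.27 ± 0.09); neither rise was called in DESeq2. Against Col-0, bzr1-1D had AT4G28811 higher and ALC (−0.65 ± 0.15) and AT4G28800 (−0.40 ± 0.15) lower (all genes, 30.8% and 26.1%), but the calls of AT4G28811 and AT4G28800 were lost in DESeq2. AT4G28811 had means of only 0.188, 0.527, 0.280 and 0.272 CPM in pifq;bzr1-1D, bzr1-1D, pifq and Col-0, the lowest close to what a count of 0 allows. Its log2 fold change in bzr1-1D against Col-0 was 0.49 to 1.63 leaving out 1 library. ALC was the 1 higher in pifq;bzr1-1D against bzr1-1D (0.94 ± 0.15) and AT4G28811 the 1 lower, again not called in DESeq2 (all genes, 33.8% and 31.6%). Against pifq, pifq;bzr1-1D had AT4G28800 (0.83 ± 0.20) and SPT (0.13 ± 0.05), a growth-restraining relative, higher and none lower (all genes, 28.1% and 27.8%). SPT was not called in DESeq2, nor AT4G28800 without pifq replicate 1 (edgeR adjusted p = 0.0558).

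PIF-induced shade and growth genes were mostly lower in pifq against Col-0, 10 of 11 lower and 1 higher, against 30.5% lower and 32% higher over all genes. The list median was −1.74. The list was chosen as genes that PIFs induce, so a fall without PIFs is built into it and is given as a description only. ST2A, a sulfotransferase gene, had a mean of 20.2 CPM in pifq and 193 CPM in Col-0 (−3.26 ± 0.05), and ATHB2, a homeobox gene of the shade response, had −3.20 ± 0.06. XTH15, a wall enzyme gene, had −1.74 ± 0.03. Set against bzr1-1D, pifq;bzr1-1D had 9 lower and none higher (all genes, 31.6% and 33.8%), with ST2A at −3.50 ± 0.05. Set against pifq, it had 7 lower and 1 higher (all genes, 27.8% and 28.1%), with BBX23 at −1.40 ± 0.08, HAT2 at 0.59 ± 0.05 and XTH15 at −0.33 ± 0.03. In bzr1-1D against Col-0, 3 rose and 4 fell (all genes, 30.8% and 26.1%), and the smallest p was that of IAA19, an auxin response repressor gene averaging 34.8 CPM in bzr1-1D, against 5.39 CPM in Col-0 (2.67 ± 0.09).

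**Figure D4:**
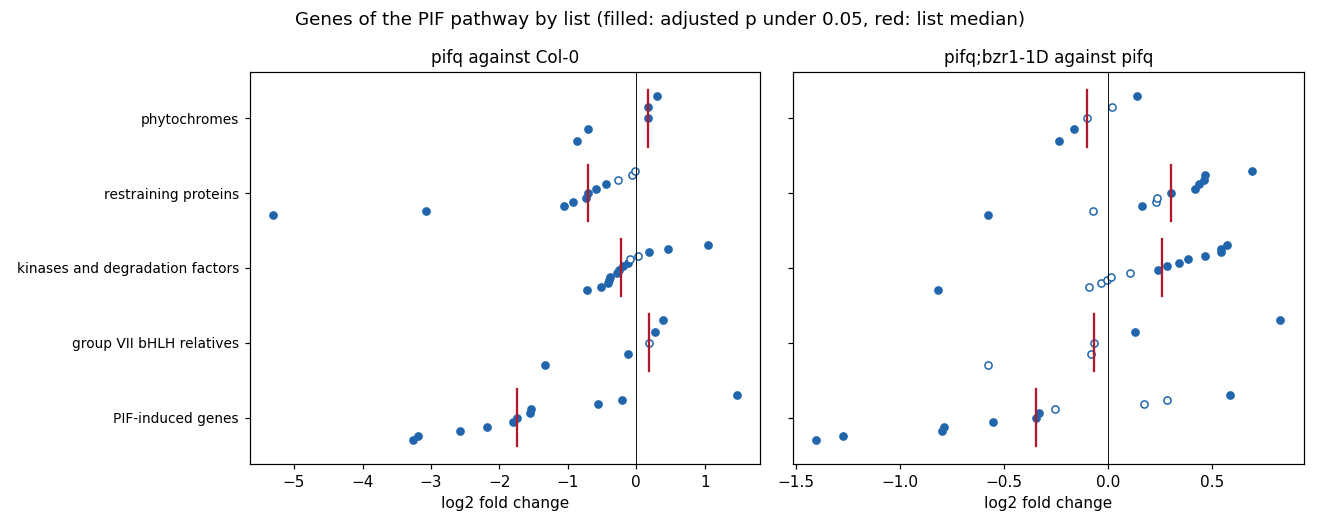
Log2 fold changes (horizontal axes) of the tested genes of 5 PIF pathway lists in pifq against Col-0 and in pifq;bzr1-1D against pifq. Each point is a gene, filled where the edgeR adjusted p was under 0.05, and red lines are list medians, which for the PIF-induced genes were −1.74 and −0.35.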

How the data were processed

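The deposited values are raw read counts per gene, 1 file per library. The submitters' processing notes name TopHat, HTSeq and the TAIR9 build. Not given in the sources used here: tool versions, the strand setting and the handling of multiply mapped reads, so that overlapping and antisense genes stay uncertain. Reads assigned to no gene (2.68% to 4.27%) or to several (1.95% to 2.08%) stayed out of library sizes and tests. Genotype and replicate come from the titles. TAIR10.1 gave names and gene order (32709 of 33518 codes matched, and all 8 members).

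Genotypes were compared in edgeR 4.0.16 under R 4.3.3, by quasi-likelihood F tests with TMM factors (0.942 to 1.04), filterByExpr (21221 genes kept) and 1 mean per genotype over all 8 libraries (4 residual degrees of freedom), with Benjamini-Hochberg adjustment. The quasi-likelihood fit also borrows information on spread across genes, so the p-values do not rest on those 4 degrees of freedom alone. SE is the absolute log2 fold change divided by the square root of F. The procedure was run on simulated data in which few genes changed, in pifq only, and each gene had the same spread in all libraries. The data here differ, with many genes called and unequal spread between replicates, so the simulation does not check error rates for them.

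The members and lists were chosen with earlier results of these data known. Named pathway genes are up to 3 per list and comparison by smallest p; COP1 is named for its role and outside that rule. Alternatives were RLE factors, library totals, no count filter, DESeq2 1.42.0, pairwise fits, thinning, a replicate block and leaving out each library. Replicates of every genotype differed by more than sampling noise, those of pifq;bzr1-1D the most. The chi-square per gene between the libraries of a genotype was 5.93 in pifq;bzr1-1D, 2.26 in bzr1-1D, 1.78 in pifq and 2.60 in Col-0. The fit shares its estimate of spread over all 8 libraries. The SE and p-values of comparisons with pifq;bzr1-1D, and of the interaction, may therefore be too small, which was not tested.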

Additional observations from a re-analysis of the deposited data

Results flagged for a closer look

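In 4 of the 8 family genes the bzr1-1D effect differed between backgrounds by the interaction test, a share close to the 48.8% of all genes called there. On the log2 scale, the effect without PIF1, PIF3, PIF4 and PIF5 minus that with them was 0.99 for PIF4, 0.93 for PIF5, 0.47 for PIF3 and 0.51 for PIF6. With the means of 2 libraries, PIF4 had 48.7 CPM in pifq;bzr1-1D and 25.5 CPM in pifq, beside 13.6 CPM in bzr1-1D and 14.2 CPM in Col-0. PIF5 had 20.9 CPM in pifq;bzr1-1D and 11.4 CPM in pifq, beside 33.7 CPM in bzr1-1D and 34.4 CPM in Col-0. With 2 libraries per genotype, no library could be examined as standing apart from its group.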

How the results depend on the processing

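Of 832 pairs of a family fold change and an alternative (56 fold changes, 15 alternatives), 817 kept their direction and side of the threshold. The 5 lost calls are those of PIF3 and PIF8 in pifq;bzr1-1D against pifq, where leaving out 1 library left 2 to 4 members called. Another 10 turned sign, all of them values not called. PIF1 in the interaction was −0.038 with library totals and −0.11 to 0.080 leaving out 1 library. PIF7 in the interaction was −0.018 thinned and −0.23 to 0.76 leaving out 1 library. In bzr1-1D against Col-0, PIF5 was 0.032 thinned, and leaving out 1 library gave −0.085 to 0.017 for PIF5, −0.26 to 0.74 for PIF7, −0.14 to 0.032 for PIF4 and −0.27 to 0.010 for PIF8. The pathway gene AT4G28800 ran from −0.25 to 0.12 in pifq;bzr1-1D against bzr1-1D. Library totals moved the median of all genes by −0.14 in pifq;bzr1-1D against Col-0 and by −0.11 against bzr1-1D. The causes were not tested.

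Same-numbered libraries did not deviate together (correlations of −0.029 to 0.047 over 12890 genes). The replicate block gave 13276 calls over all genes in pifq against Col-0, against 13267 without it, and changed the family count in none of the 7 comparisons. Depth limits PIF7 most, with 11 to 82 counts per genotype.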
